A study of Mus musculus with 8 samples.

Results

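The 10 endothelial genes Cd300lg, Pecam1, Cdh5, Eng, Tie1, Tek, Kdr, Flt1, Vwf and Stab2 were found by their gene symbols among the 19348 genes of the count table, and all 10 were present. They were measured by RNA-seq in epididymal white adipose tissue (eWAT, the fat pad beside the epididymis) and liver of male C57BL/6 mice aged 12 weeks, which ate a normal diet and were killed after 16 h of fasting. The mice carried either a whole-body deletion in Crtc1 made with CRISPR/Cas9 guides against its exons 2 and 4 (labelled Crtc1-/-) or the intact gene (labelled Crtc1+/+, littermates from heterozygous parents), with no other allele or agent. There were 2 libraries for each tissue and genotype, 8 in all, from separate mice within a group. The methods of the study name 2 mice of each label and a piece of both tissues, so liver and eWAT libraries appear to share mice, but the labels do not tie a liver library to an eWAT library. Crtc1 encodes a coactivator of CREB, and the study asked how its loss alters gene expression in fat and liver.

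Endothelial cells line blood vessels, and the genes described here encode proteins of their surface and their signalling. Cdh5 (VE-cadherin) and Pecam1 (CD31) hold neighbouring cells together at their junctions. Kdr and Flt1 are the receptors of vascular endothelial growth factor (VEGF), with Kdr carrying most of the growth signal and Flt1 binding the ligand tightly. Tek (TIE2) is the receptor of the angiopoietins and Tie1 its partner receptor. Eng (endoglin) is a co-receptor for ligands of the BMP and TGF-beta family, Vwf is the multimeric protein that tethers platelets to injured vessel walls, Cd300lg (nepmucin) is a surface glycoprotein of capillary and venular endothelium, and Stab2 is a scavenger receptor that takes up hyaluronan in the sinusoids of liver, spleen and lymph node. Fat is fed by a continuous capillary network, whereas the liver sinusoid has a fenestrated wall.

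The libraries held between 16560085 and 19721481 estimated counts. Levels are given below as CPM, which are counts divided by a library total that was scaled within a tissue by the trimmed mean of M values (TMM), unless another scale is named. A gene is said to have risen or fallen where edgeR's quasi-likelihood test gave a Benjamini-Hochberg adjusted p under 0.05 over all genes of the comparison. With 2 libraries against 2, an exact permutation test of a single gene could not give a two-sided p below 0.333. Crtc1 itself was not reduced under its own knockout label: in eWAT it stood at 58.5 and 33.6 CPM against 32.6 and 33.7 CPM, and in liver at 22.1 and 18.0 CPM against 11.7 and 9.87 CPM. The log2 fold changes of Crtc1 were 0.48 (SE 0.37, adjusted p = 0.396 by edgeR) in eWAT and 0.89 (SE 0.27, adjusted p = 0.184) in liver. Counts summed over a whole gene include exons outside the deleted part, so they check the labels little.

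The labelled tissues were checked against their markers. The eWAT libraries differed in more than endothelial genes. Gpx5, a glutathione peroxidase of the epididymis, stood at 40800 and 50640 CPM in eWAT under the label Crtc1+/+ and at 1.81 and 7.01 CPM under Crtc1-/-, and the summed level of 14 epididymis genes was 64370 and 77930 CPM against 44.3 and 13.8 CPM. Adipocyte genes ran the other way: Fabp4, the fatty acid carrier of fat cells, stood at 18220 and 9589 CPM under the label Crtc1-/- and at 499 and 1079 CPM under Crtc1+/+. Alb, made by hepatocytes, reached 65410 CPM in eWAT Crtc1-/- replicate 2 and 2761 CPM in eWAT Crtc1+/+ replicate 1, against 522 and 422 CPM in the other eWAT libraries and 94620 to 127600 CPM in liver. In liver the 14 epididymis genes summed to 76.7 and 10.5 CPM under the label Crtc1-/- and to 2.16 and 1.78 CPM under Crtc1+/+. The part that any of these played in the endothelial results was not tested. In tissue pieces such as these, a change in the number of endothelial cells and a change in RNA per cell cannot be told apart.

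The start sites of 6 members (Eng, Tek, Tie1, Kdr, Flt1 and Stab2) had a window in the RefSeq promoter set of GRCm38.p6, and Cd300lg, Pecam1, Cdh5 and Vwf had none. The 250 bases upstream of each start were searched on both strands for the ETS core CAGGAA, since ETS factors are regulators of endothelial genes, for the full cyclic AMP response element TGACGTCA, the site of CREB, and for its core TGACG, which lies within the full element. The ETS core was found in 3 of the 6 windows (Tek, Tie1 and Stab2) and in 25.7% of all 32851 windows of the same length. The full element was found in 1 of the 6, Flt1, and in 1.55% of all windows, and the core TGACG in that same window alone among the 6 and in 17.8% of all. The windows of Eng and Kdr held none of these letters. The 5 matches are shown with 30 bases each, 5′ to 3′ on the strand of the gene, with the match in capitals.
Tek, chr4:94739188-94739217, plus strand, match 89 to 84 bases before the start: cttgttattcaaTTCCTGgcctatgagagg
Tek, chr4:94739218-94739247, plus strand, match 59 to 54 bases before the start: atacccctattgTTCCTGaaaatgctgacc
Tie1, chr4:118490041-118490070, minus strand, match 209 to 204 bases before the start: ggcttcctccctTTCCTGtctcccgtgctc
Flt1, chr5:147726074-147726103, minus strand, match 81 to 74 bases before the start: gggggacccctTGACGTCActggaaggagg
Stab2, chr10:87008063-87008092, minus strand, match 138 to 133 bases before the start: cctcagccccttCAGGAAatcctgtcactc
In the GENCODE annotation, the runs of Tek and Flt1 overlapped no transcript, although both lay inside the RefSeq span of their own gene and so are not upstream of every annotated start. In GENCODE the run of Tie1 lay in an untranslated exon of a longer Tie1 transcript, and that of Stab2 lay within a transcript of Gm16271. These matches describe letters only.

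In eWAT, 9 of the 10 endothelial genes were higher under the label Crtc1-/-, by 5.63-fold for Tek up to 30.8-fold for Cd300lg, and only Stab2 missed the threshold. All 10 log2 fold changes were also above 0 with upper-quartile and library-size scaling, DESeq2 and limma on FPKM, but those of Kdr, Flt1, Tek, Vwf and Stab2 fell below 0 when libraries were scaled on other endothelial or on adipocyte genes. Over all 15391 genes tested, 6.65% were called higher. In all 10 genes, Stab2 included, both libraries labelled Crtc1-/- lay above both labelled Crtc1+/+, an order that 31.3% of all genes tested showed. The median log2 fold change of the 10 was 3.41, against -0.05 over all genes tested. By DESeq2 all 10 were called, and 15.3% of all genes tested were called higher. The call rested on both control libraries: without eWAT Crtc1+/+ replicate 1, or without replicate 2, none of the 10 and none of all genes tested had an adjusted p under 0.05, although 10 and 9 of the members had an unadjusted p under 0.05 and all 10 kept a positive log2 fold change.

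**Figure D1:**
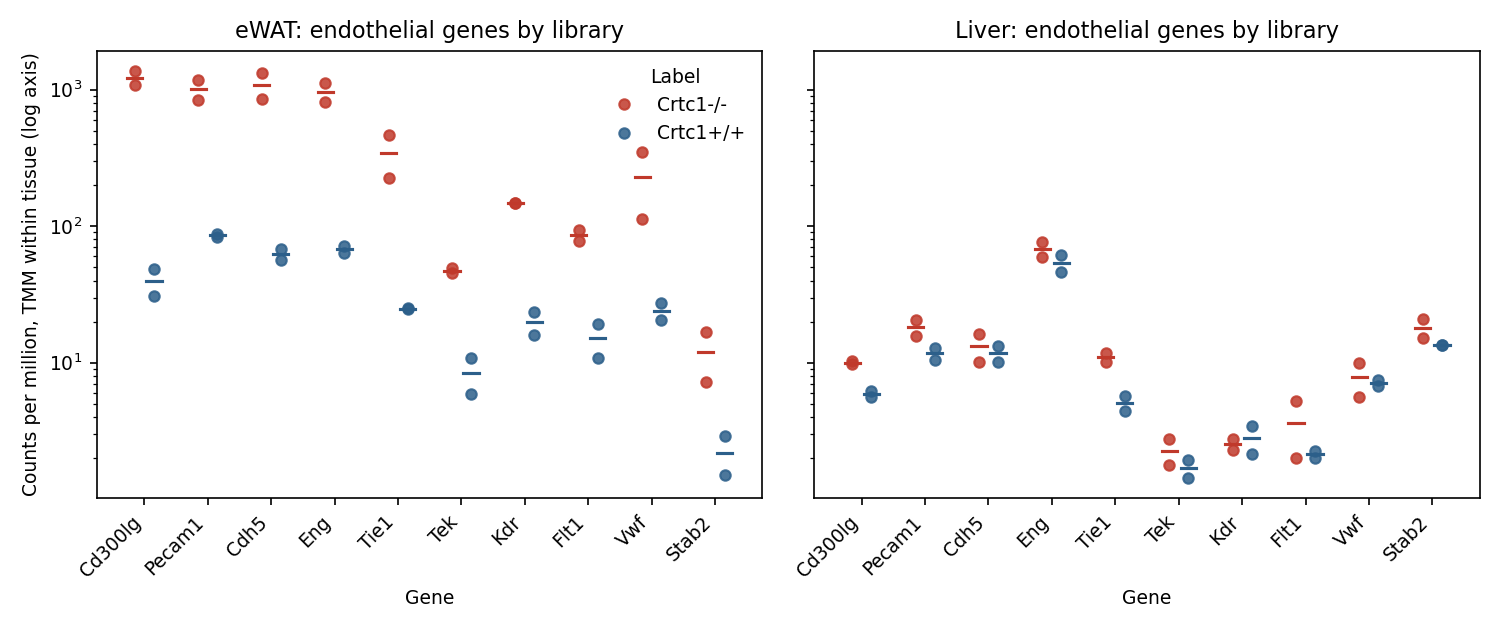
Level of each endothelial gene in each library, in CPM scaled by TMM within the tissue, on a log axis, for eWAT (left) and liver (right). Points are libraries, 2 for each label, and short lines are their means. In eWAT the points labelled Crtc1-/- lie above those labelled Crtc1+/+ for all 10 genes, and in liver for Cd300lg, Pecam1, Tie1 and Stab2.

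Among the surface and junction proteins, Cd300lg (NCBI Gene 52685, chr11:102041511-102055617 of GRCm38.p6) had the largest difference of the 10. It stood at 1365 and 1081 CPM in eWAT under the label Crtc1-/- and at 30.7 and 48.8 CPM under Crtc1+/+. The gap between the pairs was large beside the spread within each. Its log2 fold change was 4.94 (SE 0.49, adjusted p = 0.0169 by edgeR). Cdh5 (chr8:104101613-104144504) stood at 1314 and 849 CPM against 56.9 and 68.1 CPM, a log2 fold change of 4.11 (SE 0.45, adjusted p = 0.0173). Pecam1 (chr11:106654213-106715281) stood at 1180 and 837 CPM against 87.2 and 83.9 CPM, a log2 fold change of 3.56 (SE 0.40, adjusted p = 0.0178). In Cdh5 and Pecam1 replicate 1 was the higher of the libraries labelled Crtc1-/-, while the Crtc1+/+ libraries were nearly level.

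Of the intracellular partners of VE-cadherin and its neighbours at the junction, 8 genes were tested, of which 1 rose and none fell in eWAT. It was Jup (plakoglobin), at 799 and 574 CPM against 177 and 173 CPM, with a log2 fold change of 1.97 (adjusted p = 0.035). Of the CD300 family to which Cd300lg belongs by name, and whose other members are receptors of myeloid cells, 4 of 7 genes were tested and 1 rose: Cd300ld, at 7.86 and 7.57 CPM against 1.01 and 0.726 CPM, far below Cd300lg.

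Eng, the co-receptor (chr2:32646595-32682669), stood at 1115 and 814 CPM against 72.0 and 63.2 CPM in eWAT, with a log2 fold change of 3.83 (SE 0.40, adjusted p = 0.0170 by edgeR). The 2 labels did not overlap, and the spread within each was small beside the gap between them. In the BMP and TGF-beta pathway that endoglin serves, 6 of 15 tested genes rose and none fell. Acvrl1 (ALK1), the endothelial receptor that signals with endoglin, stood at 228 and 114 CPM against 31.7 and 23.1 CPM. Id3 and Id1, which are target genes of this pathway, stood at 239 and 157 against 31.4 and 14.0 CPM, and at 156 and 117 against 22.6 and 16.9 CPM. Their log2 fold changes were 2.64 for Acvrl1, 3.13 for Id3 and 2.79 for Id1. The median of the pathway list was 0.53, well below that of the 10 endothelial genes.

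The Tie receptors both rose. Tie1 (chr4:118471191-118489849) stood at 462 and 226 CPM of eWAT under the label Crtc1-/- and at 24.7 and 25.2 CPM under Crtc1+/+, a log2 fold change of 3.79 (SE 0.47, adjusted p = 0.0197 by edgeR). Tek (chr4:94739086-94874976) was lower in level, at 49.0 and 45.1 CPM against 5.88 and 10.8 CPM, and changed less, with a log2 fold change of 2.49 (SE 0.43, adjusted p = 0.0309). Under the label Crtc1-/-, Tie1 was uneven and Tek nearly level between the replicates. Of 6 genes of the angiopoietin pathway, the ligands and their downstream parts, 3 rose. Among them were Ptprb, the phosphatase that restrains Tek, at 138 and 170 CPM against 20.7 and 42.5 CPM, and Foxo1, the transcription factor that Tek signalling holds in check, at 98.9 and 120 CPM against 34.7 and 44.6 CPM.

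The VEGF receptors rose as well. Kdr (chr5:75932827-75979072) stood at 147 and 148 CPM of eWAT under the label Crtc1-/- and at 16.1 and 23.7 CPM under Crtc1+/+, with a log2 fold change of 2.89 (SE 0.33, adjusted p = 0.0178 by edgeR). Flt1 (chr5:147561604-147726438), whose upstream window holds the full cyclic AMP response element shown above, stood at 77.8 and 93.7 CPM against 10.8 and 19.3 CPM, with a log2 fold change of 2.51 (SE 0.40, adjusted p = 0.0275). Kdr and Flt1 were nearly level between the libraries labelled Crtc1-/-, unlike Tie1 and Vwf. Of 8 VEGF ligands and co-receptors in the table, 4 rose and none fell. The co-receptors Nrp1 (108 and 149 CPM against 25.6 and 41.1 CPM) and Nrp2 (64.4 and 52.8 CPM against 13.0 and 10.6 CPM) and the ligand Vegfb (165 and 108 CPM against 35.1 and 26.9 CPM) were among the 4. The fourth was Flt4, the VEGF-C receptor of lymphatic vessels, at 53.4 and 27.8 CPM against 9.59 and 5.29 CPM. Its adjusted p was 0.049 by edgeR, and the call was lost with upper-quartile scaling (0.0633), with library-size scaling (0.0684) and without eWAT Crtc1-/- replicate 1 (0.053). Library-size scaling also took the adjusted p of Vegfb to 0.052 and of Nrp1 to 0.0515. Vegfa, the chief ligand of Kdr, did not pass, at 41.2 and 116 CPM against 21.3 and 43.7 CPM, where the labels overlapped (adjusted p = 0.222).

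Vwf (chr6:125552948-125686679) was the most uneven of the 9 that rose. It stood at 348 and 113 CPM of eWAT under the label Crtc1-/- and at 27.6 and 20.5 CPM under Crtc1+/+, a log2 fold change of 3.26 (SE 0.63, adjusted p = 0.0396 by edgeR). Both values labelled Crtc1-/- were above both controls, but replicate 1 was far above replicate 2, and without replicate 1 the log2 fold change was 2.24. None of 5 tested partners of the Vwf protein (its protease, its cargo factor VIII and its platelet receptor) was called.

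Stab2 (chr10:86841194-87008038) was scarce in eWAT. It stood at 7.20 and 16.8 CPM against 2.89 and 1.504 CPM, from 131, 242, 60 and 29 counts, and its log2 fold change of 2.44 (SE 0.68) had an adjusted p of 0.0803 by edgeR. The higher of the 2 values labelled Crtc1-/- came from replicate 2, the library with the most Alb. Without that library the log2 fold change of Stab2 was 1.70, and without replicate 1 it was 2.94. Dnase1l3, a nuclease of the liver sinusoid, showed the same order of libraries, at 15.01 and 32.9 CPM against 8.29 and 0.985 CPM (adjusted p = 0.190). Of 15 sinusoidal genes 2 rose in eWAT: Stab1, the paralog of Stab2 that macrophages also make, at 155 and 78.7 CPM against 24.6 and 16.1 CPM, and Gpr182, a receptor of sinusoidal and lymphatic endothelium, at 93.4 and 56.3 CPM against 4.58 and 5.03 CPM. In both genes replicate 1 labelled Crtc1-/- was the highest library, opposite to Stab2. Of the 15 sinusoidal genes 11 had a log2 fold change above 0 and none fell, where 6.65% of all genes tested were called higher. Ehd3, among the most abundant of the 15, ran the other way, at 26.5 and 43.1 CPM against 54.7 and 83.1 CPM (-0.99). Rspo3 (-1.54), Fcgr2b (-0.54) and F8 (-0.011) were below 0 too, none of them called.

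Most of the endothelial genes outside the 10 moved the same way in eWAT, but not all. Of 21 other genes shared by most endothelia, 18 rose and none fell, and the summed level of the list was 4642 and 3073 CPM under the label Crtc1-/- against 363 and 399 CPM under Crtc1+/+. Cldn5, the claudin of endothelial tight junctions, stood at 729 and 677 CPM against 24.6 and 25.2 CPM. The guidance receptor Robo4 stood at 482 and 331 CPM against 20.7 and 24.3 CPM, and the adhesion molecules Esam and Icam2 at 505 and 317 against 40.9 and 39.5 CPM and at 147 and 54.9 against 6.94 and 4.36 CPM. Of 10 genes of fat capillaries 8 rose. Gpihbp1, which carries lipoprotein lipase to the capillary lumen, stood at 1170 and 814 CPM against 30.8 and 39.0 CPM, close to Cd300lg in every eWAT library. The retinoid carrier Rbp7 and the apelin receptor Aplnr had log2 fold changes of 4.98 and 4.16. The fatty acid transporter Cd36, which adipocytes and macrophages also make, did not pass, at 1190 and 953 CPM against 61.4 and 215 CPM (adjusted p = 0.059), and the carbonic anhydrase Car4 rose less than the others, by 1.99 on the log2 scale. Of 8 arterial genes 3 rose, among them the Notch ligand Dll4 at 77.3 and 32.9 CPM against 6.26 and 5.45 CPM. Of 6 tested genes of veins and activated endothelium 3 rose, among them Ephb4, the ephrin receptor of veins, at 349 and 262 CPM against 33.6 and 28.7 CPM. Nr2f2, the venous transcription factor, which stroma makes too, had a log2 fold change of -0.21 (adjusted p = 0.647). Of 7 lymphatic genes 1 rose, Flt4. Log2 fold changes below 0 were seen in Calcrl of the 21 (-0.91), the arterial Efnb2 (-1.37) and the lymphatic Pdpn (-2.22) and Sema3d (-2.79), none of them called. The eWAT calls of 26 genes outside the 10 were followed through the alternatives. With library-size scaling 9 of the 26 lost their call (Car4, Cd300ld, Flt4, Foxo1, Hbb-bs, Jup, Nrp1, Stab1 and Vegfb). No log2 fold change among the 26 changed sign when either eWAT Crtc1+/+ library was left out. The called genes of pericytes, smooth muscle, macrophages, platelets and mesothelium named under other observations were not among the 26. These lists were drawn up with earlier results of the same libraries known and are no independent evidence of direction.

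**Figure D2:**
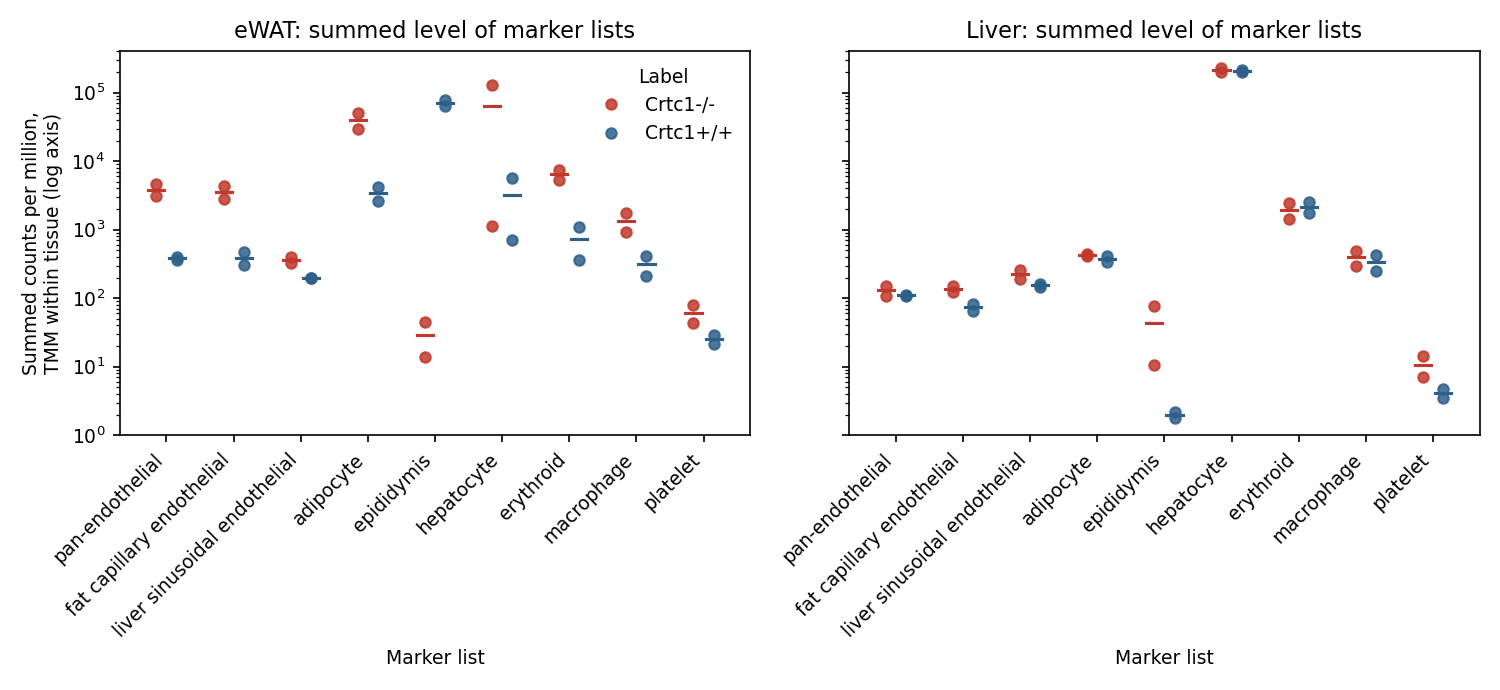
Summed level of 9 marker gene lists in each library, in CPM scaled by TMM within the tissue, on a log axis, for eWAT (left) and liver (right). Points are libraries, 2 for each label, and short lines are their means. In eWAT the pan-endothelial, adipocyte and erythroid lists are higher in both libraries labelled Crtc1-/-, the epididymis list is higher in both labelled Crtc1+/+, and 1 library labelled Crtc1-/- reaches 128600 CPM of hepatocyte genes.

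Genes of other cells moved with the endothelial genes in eWAT. The summed level of 16 adipocyte genes was 49820 and 29220 CPM under the label Crtc1-/- against 2642 and 4240 CPM, and 10 of the 16 rose. All 16 were detected in every eWAT library. The endothelial genes kept pace with them: for every 100 counts of the 16 adipocyte genes there were 9.32 and 10.5 counts of the 21 other endothelial genes under the label Crtc1-/-, and 13.7 and 9.41 under Crtc1+/+, so that the labels overlapped. Erythroid genes summed to 7542 and 5381 CPM against 1109 and 361 CPM, and 3 of 6 tested rose, among them the beta globin Hbb-bs at 2640 and 1652 CPM against 325 and 119 CPM. Of 14 epididymis genes 13 fell, and 5 of the 14 were at 0 in each library labelled Crtc1-/-. Hepatocyte genes summed to 1142 and 128600 CPM against 5662 and 714 CPM, and none of 13 was called.

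When the eWAT libraries were scaled on the summed counts of the 21 other endothelial genes, only Cd300lg among the 10 was still called, with a log2 fold change of 1.64 (adjusted p = 0.009), while 86.6% of all genes tested were called, nearly all of them lower. Cdh5 was at 0.77 (adjusted p = 0.0676), Eng at 0.50, Tie1 at 0.40 and Pecam1 at 0.22, while Kdr, Flt1, Tek, Vwf and Stab2 had log2 fold changes below 0, between -0.19 and -0.78, none of them called. Scaled on 15 adipocyte genes instead, a choice made after the data were seen, Cd300lg was again the only one called, at 1.72 (adjusted p = 0.0160), where 86.4% of all genes were called. On these scales the median of all genes tested was -3.34 and -3.31. Over all alternatives run, the edgeR, DESeq2 or limma adjusted p in eWAT ranged from 2.48e-35 to 0.252 for Cd300lg and from 8.31e-29 to 0.252 for Cdh5.

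The counts of each member were also set against the other endothelial genes of the same library, a ratio that needs no scaling between libraries. For every 100 counts of the 21 genes, Cd300lg had 29.4 and 35.2 counts of eWAT under the label Crtc1-/- and 8.46 and 12.2 under Crtc1+/+. Liver held 9.04 and 6.77, and 5.55 and 5.15, in the same order of labels. Cd300lg thus took a larger share of endothelial counts in eWAT under the label Crtc1-/- than in any of the other 6 libraries. Cdh5 had 28.3 and 27.6 against 15.7 and 17.1 in eWAT, again without overlap. Pecam1 lay between 21.03 and 27.25 in all 4 eWAT libraries, and Vwf had 7.51 and 3.68 against 7.60 and 5.15, where the labels overlapped. For Tek the order was turned, with 1.06 and 1.47 against 1.62 and 2.72.

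**Figure D3:**
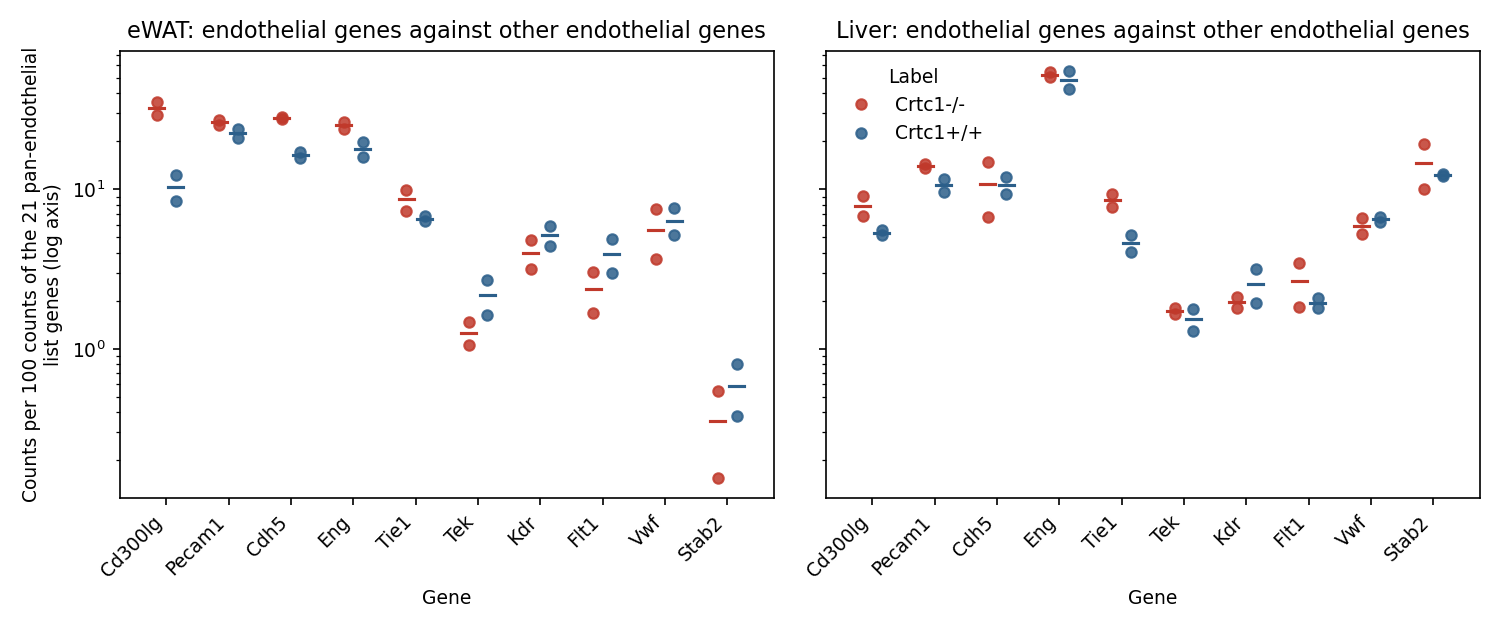
Counts of each endothelial gene for every 100 counts of 21 other endothelial genes in the same library, on a log axis, for eWAT (left) and liver (right). Points are libraries, 2 for each label, and short lines are their means. Cd300lg and Cdh5 separate the labels most in eWAT, Pecam1 by little and Vwf not at all, and Stab2 is between 0.155 and 0.797 in eWAT but between 9.996 and 19.1 in liver.

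In liver, none of the 10 endothelial genes was called by edgeR, where 0.0598% of 11707 genes tested were called higher. Tie1, Cd300lg and Pecam1 had an unadjusted p under 0.05. DESeq2 called none of the 10, with 2 under an unadjusted 0.05, where 2.55% of all genes tested were called in either direction. Limma on log2(FPKM + 1) called none of the 10, with 3 under an unadjusted 0.05, but it called 0 of all 11707 genes as well. Both libraries labelled Crtc1-/- lay above both labelled Crtc1+/+ in 4 of the 10 (Cd300lg, Pecam1, Tie1 and Stab2), against 25.8% of all genes tested. The median log2 fold change of the 10 was 0.41, and that of all genes tested 0.0039. Without Liver Crtc1-/- replicate 1, 2 of the 10 were called, Tie1 and Flt1, but so were 12.5% of all genes tested. None of the 21 other endothelial genes was called, and their summed level was 108 and 152 CPM against 111 and 109 CPM. That sum holds S1pr1, which ran the other way, at 13.0 and 21.8 CPM against 44.2 and 44.6 CPM. Of the 21 log2 fold changes 20 were above 0, with a median of 0.84, and 8 genes had an unadjusted p under 0.05 by edgeR.

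Tie1 had the largest liver difference, at 10.2 and 11.7 CPM against 5.75 and 4.41 CPM, a log2 fold change of 1.11 (SE 0.30, adjusted p = 0.159 by edgeR). Cd300lg stood at 9.80 and 10.3 CPM against 6.16 and 5.61 CPM, a log2 fold change of 0.77 (SE 0.28, adjusted p = 0.229), and Pecam1 at 15.7 and 20.7 CPM against 12.9 and 10.5 CPM (0.64, SE 0.28). In these 3 genes the labels did not overlap, but the gap was small beside that in eWAT. Eng, the most abundant of the 10 in liver, stood at 59.1 and 76.6 CPM against 61.3 and 46.2 CPM, with overlap. Cdh5 stood at 16.1 and 10.2 CPM against 13.3 and 10.2 CPM, and the 95% interval of its log2 fold change ran from -0.54 to 0.87. Stab2, the sinusoidal receptor, stood at 20.8 and 15.2 CPM against 13.5 and 13.6 CPM, with an interval from -0.21 to 1.03.

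The remaining liver members were low. Kdr, the only one with a negative log2 fold change (-0.15, interval -1.07 to 0.76), had 44 and 47 counts under the label Crtc1-/- and 42 and 66 under Crtc1+/+, or 2.31 and 2.74 CPM against 2.16 and 3.46 CPM. Flt1 had 38, 90, 39 and 43 counts in the same order, and the library with 90 was Crtc1-/- replicate 2. Tek had between 28 and 47 counts in the 4 libraries, and Vwf between 108 and 171. Leaving out 1 liver library turned the sign of the log2 fold change in Kdr (0.22 without Crtc1+/+ replicate 2), Flt1 (-0.10 without Crtc1-/- replicate 2), Vwf (-0.34 without the same library) and Cdh5 (-0.19 without Crtc1-/- replicate 1). At this depth only large differences could have been seen in Kdr, Flt1 and Tek. Of the pathway lists none had a called gene in liver, with 7 VEGF, 2 angiopoietin, 15 endoglin and 7 junction genes tested.

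**Figure D4:**
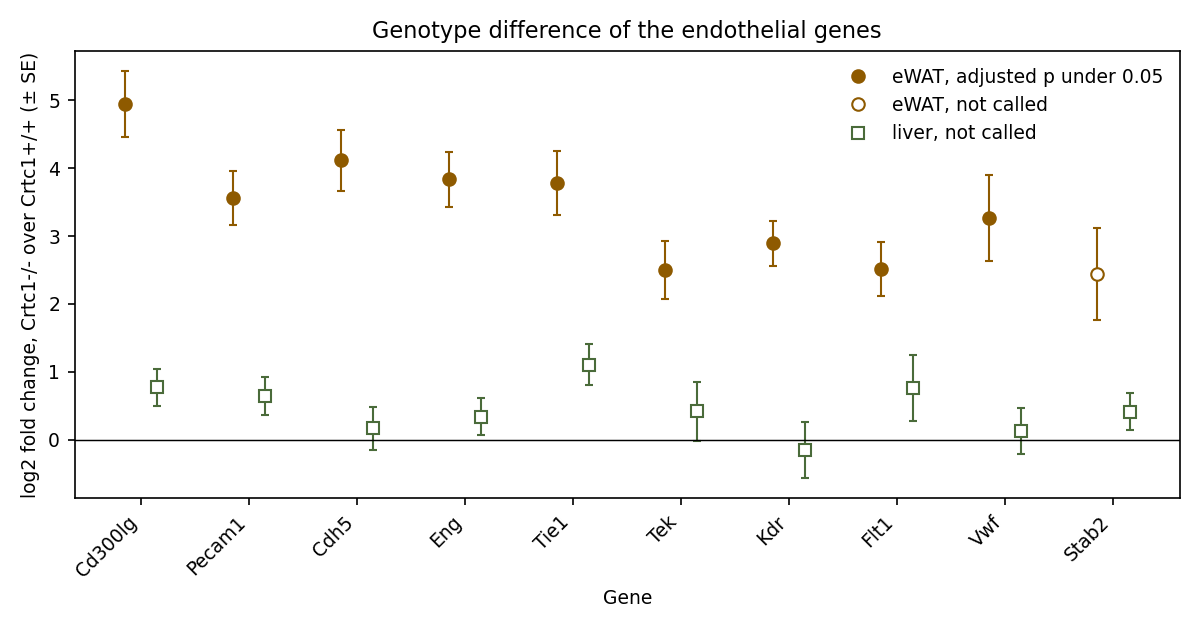
Log2 fold change, Crtc1-/- over Crtc1+/+, of each endothelial gene in eWAT (circles) and liver (squares) by edgeR, with 2 libraries for each label. Bars are standard errors, and filled symbols have an adjusted p under 0.05. In eWAT 9 of 10 are filled, between 2.49 and 4.94 on this TMM scale (Kdr, Flt1, Tek and Vwf turn below 0 when scaled on other endothelial genes), and in liver none is, between -0.15 and 1.11.

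Whether the genotype difference itself differed between eWAT and liver was tested in a fit of all 8 libraries. The difference was larger in eWAT for 6 of the 10 (Cd300lg, Cdh5, Eng, Kdr, Pecam1 and Tie1), where 3.78% of 15587 genes were called in that direction. It was largest for Cd300lg, at 4.09 on the log2 scale (SE 0.47, adjusted p = 0.0095 by edgeR), and next for Cdh5, at 3.85 (SE 0.52, adjusted p = 0.0121). Vwf, at 3.0 (SE 0.70), had an adjusted p of 0.0509, and Tek, Stab2 and Flt1 did not pass either, at 2.0, 1.98 and 1.69. Without Liver Crtc1+/+ replicate 1, or without replicate 2, none of the 10 was called, with 8 under an unadjusted 0.05 each time. The calls over all genes fell as well, from 6.94% in either direction to 0 of 16469 genes and to 0.188% of 16470. Leaving out eWAT Crtc1+/+ replicate 1 left 3 of the 10 (2.58% of all genes), leaving out its replicate 2 left 1 (0.857%), and leaving out either liver library labelled Crtc1-/- left 2 (1.17% and 1.46%). All 10 differences stayed above 0 in each of these. Scaled on the 21 other endothelial genes, none of the 10 was called and 4 were above 0, where 71.6% of all genes were called, nearly all of them lower. With the replicate number as a block within each label, which stands for the mouse if the numbers follow it, 5 of the 10 were called and Tie1 was not (adjusted p = 0.0533 by edgeR).

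Levels were compared between genes on the authors' FPKM, which divides by transcript length. In eWAT labelled Crtc1-/-, Cd300lg led, at 590 and 387 FPKM, which placed it 215th and 303rd among all genes of its library. It was followed by Pecam1 (377 and 222 FPKM), Eng (333 and 201 FPKM) and Cdh5 (336 and 180 FPKM), whose ranges overlapped with each other. Tie1 (122 and 49.2 FPKM) came below these without overlap, then Vwf (40.3 and 10.8 FPKM) and Kdr (27.2 and 22.6 FPKM), which overlapped. By their means Flt1 (12.6 and 12.5 FPKM), Tek (11.9 and 8.92 FPKM) and last Stab2 (0.89 and 1.72 FPKM) followed. The range of Vwf also overlapped with those of Flt1 and Tek. In eWAT labelled Crtc1+/+ the first place was held by Pecam1 (32.4 and 29.8 FPKM), above Eng (24.8 and 21.1 FPKM), while Cd300lg (15.3 and 23.5 FPKM) overlapped with both Eng and Cdh5 (16.8 and 19.4 FPKM). Stab2 was again last, at 0.41 and 0.21 FPKM. The order of the lower genes was nearly kept, and Cd300lg moved from place 3 to place 1.

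The liver had another order. Eng led in both labels, at 18.0 and 24.0 FPKM and at 18.4 and 13.7 FPKM, well clear of Pecam1 (5.20 and 7.10, and 4.18 and 3.39 FPKM). Stab2, last in eWAT, lay above Vwf, Kdr, Flt1 and Tek in liver, at 2.61 and 1.96 FPKM and at 1.66 in both libraries labelled Crtc1+/+. Kdr, Flt1 and Tek lay between 0.32 and 0.88 FPKM and overlapped with each other. Eng took 42.4 to 55.2 counts for every 100 of the 21 other endothelial genes in liver and 15.8 to 26.5 in eWAT, and in Stab2 the liver range of 9.996 to 19.1 lay far above the eWAT range of 0.155 to 0.797. Neither gene's tissues overlapped on this ratio.

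Tissue differences were tested in the fit of all 8 libraries, with eWAT as the numerator and on a CPM scale set by TMM over the 8. Among the libraries labelled Crtc1+/+, 7 of the 10 were higher in eWAT, where 35.0% of 15587 genes were, and 1 was lower, Stab2, where 19.8% of genes were. Pecam1 had the largest log2 difference of the 7, at 1.65 (SE 0.31, adjusted p = 0.0055 by edgeR), and Stab2 stood at 1.96 and 0.988 CPM in eWAT against 20.8 and 21.1 CPM in liver, a log2 difference of -3.82 (SE 0.57). Eng, at -0.88 (adjusted p = 0.0503), and Vwf, at 0.54, were not called. Scaling mattered here: the median of all genes was 0.61 with TMM, 2.0 with library-size scaling and -0.03 with limma on log2(FPKM + 1). The sign turned for Flt1 and Tek with limma on FPKM, which changes the unit, the normalization and the test at once, for Vwf with limma and with scaling on other endothelial genes, and for Eng with library-size scaling. Stab2 was lower in eWAT under each alternative run. The number of the 10 called fell from 8 to 6 without eWAT Crtc1+/+ replicate 1, to 3 without eWAT Crtc1+/+ replicate 2, to 3 without Liver Crtc1+/+ replicate 1 and to 2 without Liver Crtc1+/+ replicate 2. Over all genes the calls fell from 54.9% to 36.9%, 31.5%, 26.0% and 27.4% in the same order.

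Among the libraries labelled Crtc1-/-, 9 of the 10 were higher in eWAT, where 18.9% of genes were, and Stab2 was lower, where 8.89% were. Cd300lg had the largest log2 difference, 5.62 (SE 0.39, adjusted p = 0.000438 by edgeR), or 49.4-fold, at 799 and 728 CPM in eWAT against 15.2 and 15.7 CPM in liver. Cdh5 was next at 5.04, and Eng, whose difference was below 0 under Crtc1+/+, was 2.52 higher in eWAT on the log2 scale. Stab2 stood at 4.22 and 11.3 CPM against 32.2 and 23.2 CPM, a log2 difference of -1.84 (SE 0.51, adjusted p = 0.0377 by edgeR). That call of Stab2 was lost with library-size scaling (adjusted p = 0.163), with hepatocyte and epididymis genes also removed (0.103), with only these 4 libraries in the fit (0.0682), with the replicate block (0.0598), and without Liver Crtc1-/- replicate 1 (0.155), its replicate 2 (0.0929) or eWAT Crtc1-/- replicate 1 (0.0903), but its difference stayed below 0 in each. In all 10 genes the eWAT and liver values did not overlap, but how many of all genes tested did the same was not counted. Scaled on the 21 other endothelial genes, 6 of the 10 were called, against 76.1% of all genes, and Flt1, Tek, Vwf and Eng fell below 0 (-0.17, -0.45, -0.078 and -1.06).

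The genes whose pattern over the 8 libraries lay nearest to that of a member were sought among 11019 genes with a mean log2 CPM of at least 1, by the Euclidean distance between centred log2 CPM profiles. Over so few points, which share their libraries and their depth, this is a description. Nearest to Cd300lg were Cldn5 (distance 0.69), Gpihbp1 (1.17), Fam57b (1.28), Mest (1.37) and Cdh5 (1.40), so that 1 other member was among its 5 nearest genes. Nearest to Pecam1 were Ccdc80, Bmp6, Hspg2, Gpr4 and Ctla2a, between 0.35 and 0.57, and the nearest member, Cdh5, was 23rd. For Stab2 they were Ebpl, Isoc2a, Immp2l, Hebp1 and Selenbp1, between 0.42 and 0.66. The nearest member to Stab2 was Eng, only 6908th, so that the profile of Stab2 stood apart from the other 9.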

How the data were processed

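RNA-seq of liver and eWAT from 12 weeks old male Crtc1-/- and Crtc1+/+ mice gave 8 libraries, 2 for each tissue and genotype, grouped by their labels, and all were used. Not normalized estimated counts and FPKM were what the authors deposited for the same 19348 genes. Between 5.44% and 9.98% of the deposited estimated counts of a library were not whole numbers, and 458 genes had no count. HISAT, Bowtie2 and GRCm38.p6 are named in the submitters' processing notes, and the counting tool, the annotation and the use of strand are not given in the sources used here. Genes that share reads with paralogs therefore depend on an unknown rule of division.

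Counts were rounded to whole numbers. The filter was filterByExpr, the scaling TMM and the test edgeR's quasi-likelihood test (4.0.16, in R 4.3.3), with p-values adjusted after Benjamini and Hochberg across every gene tested, within a tissue for the genotype and in a fit of 4 groups and 8 libraries for the interaction and the tissues. Standard errors came from dividing a log2 fold change by the root of its F statistic, and 95% intervals used the fitted degrees of freedom. Alternatives were DESeq2 1.42.0, limma 3.58.1 on quantile-normalized log2(FPKM + 1) and log2(FPKM + 0.1), other scalings, no filter, other libraries in the fit, the replicate number as a block and each library left out. The fits were tested on simulated counts with 200 changed genes. The spread between simulated libraries was set below that estimated in the eWAT and liver libraries, so error rates in the real libraries were not measured. Counting error and the floor of a low count limit the scarce genes, and the spread between 2 libraries limits the rest.

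The 10 members and the gene lists were chosen with earlier results of these data known. Genes named besides the members were, for each list, up to 3 with the highest mean CPM and, for endothelial and pathway lists, up to 3 called with the largest change in a tissue, the 5 nearest profiles of Cd300lg, Pecam1 and Stab2, and Crtc1. Loci and promoter sequences came from RefSeq on GRCm38.p6, and GENCODE vM21 gave the overlaps.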

Additional observations from a re-analysis of the deposited data

Results flagged for a closer look

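The genotype difference was larger in eWAT than in liver for 6 endothelial genes by the interaction test of edgeR over 8 libraries (adjusted p under 0.05, with 2 libraries for each tissue and genotype). Of all 15587 genes tested, 3.78% were called in that direction. On the log2 scale the difference between the tissues was 4.09 for Cd300lg, 3.85 for Cdh5, 3.40 for Eng, 2.97 for Kdr, 2.83 for Pecam1 and 2.57 for Tie1. In eWAT both libraries labelled Crtc1-/- lay above both labelled Crtc1+/+ in all 6, and in liver in Cd300lg, Pecam1 and Tie1. Of all genes tested 31.3% in eWAT and 25.8% in liver showed that order. Scaled on the 21 other endothelial genes, none of the 6 was called. Pecam1 and Tie1 then fell to -0.18 and -0.49, while Cd300lg, Cdh5, Eng and Kdr stayed above 0.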

How the results depend on the processing

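Of the 10 endothelial genes, 9 were called in eWAT, and 8 to 10 were under DESeq2, limma, upper-quartile and library-size scaling, no filter, removal of hepatocyte and epididymis genes, or all 8 libraries in the fit. All 10 kept a positive eWAT log2 fold change in these. With the replicate number as a replicate block, 0 were called in eWAT, as were 0 of all genes tested, with 10 members under an unadjusted p of 0.05. The numbers were not shown to pair the libraries, since deviations from the group means correlated by 0.0086 across genotypes in eWAT, 0.052 in liver, and 0.036 and 0.15 across tissues. The block called 0 members in liver, 5 in the interaction, and 8 and 9 in the tissues under Crtc1+/+ and Crtc1-/-. Of all genes tested it called 0.7%, 5.94%, 54.7% and 28.9% in the same order. It lost Tie1 in the interaction and Stab2 in the tissues under Crtc1-/-. All genes called in eWAT were 1023 higher and 852 lower, but 2362 and 2258 by DESeq2, 1792 and 2069 with all 8 libraries in the fit, and 587 and 1075 with library-size scaling, where the share that was higher fell from 54.6% to 35.3%. In liver 7 and 3 genes were called, and 172 and 126 by DESeq2.

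Scaled on pan-endothelial genes, 1 member was called in eWAT, 0 in the interaction, 4 in the tissues under Crtc1+/+ and 6 under Crtc1-/-. Of all genes tested, 86.6%, 71.6%, 50.3% and 76.1% were called in the same order. Scaled on adipocyte genes, chosen after seeing the data, 1 member was called in eWAT, where 86.4% of all genes were. These scalings shift every gene by design. In eWAT the pan-endothelial scaling turned the log2 fold changes of Kdr to -0.38, Flt1 -0.73, Tek -0.78, Vwf -0.19, Stab2 -0.74, Crtc1 -2.89, Cd36 -0.32, Car4 -1.33, Stab1 -0.88, Dnase1l3 -0.86, Vegfa -1.85, Vegfb -1.22, Nrp1 -1.27, Nrp2 -1.01, Flt4 -0.95, Ptprb -0.95, Foxo1 -1.78, Id1 -0.54, Id3 -0.24, Acvrl1 -0.75, Jup -1.36, Cd300ld -0.15, Dll4 -0.18, Ephb4 -0.035 and Hbb-bs -0.11. The adipocyte scaling turned Kdr to -0.30, Flt1 -0.63, Tek -0.68, Vwf -0.21, Stab2 -0.75 and Crtc1 -2.86, and turned the same 19 other named genes as the pan-endothelial scaling, to between -1.72 and -0.020. In the interaction the pan-endothelial scaling gave Pecam1 -0.18, Flt1 -1.19, Tie1 -0.49, Tek -0.95, Vwf -0.053 and Stab2 -0.99. In the tissues it gave Vwf -0.025 under Crtc1+/+, and Flt1 -0.17, Tek -0.45, Vwf -0.078 and Eng -1.06 under Crtc1-/-. Vwf in liver turned to -0.13 with it, and to -0.044 and -0.11 with limma on log2(FPKM + 1) and log2(FPKM + 0.1). Between the tissues under Crtc1+/+, limma with these pseudocounts called 3 and 3 members, where 43.2% and 44.8% of all genes were called. It gave Flt1 -0.075 and -0.20, Tek -0.32 and -0.70, and Vwf -0.45 and -0.77. Eng turned to 0.52 with library-size scaling and 0.31 when hepatocyte and epididymis genes were also removed. The cause was not tested.

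Leaving out each library in turn gave 0 to 10 members called in eWAT, 0 to 2 in liver, 0 to 8 in the interaction and 2 to 6 in the tissues under Crtc1+/+. Such a fit has 1 sample in an arm, which is assumed to vary like the others. In liver the log2 fold changes ran from -0.19 to 0.45 for Cdh5, -0.47 to 0.22 for Kdr, -0.10 to 1.31 for Flt1 and -0.34 to 0.49 for Vwf, and that of Alb in eWAT from -1.59 to 6.40. Counts under 100 limit Kdr, Flt1 and Tek in liver.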

Other observations

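Cells that lie against endothelium were followed through their own markers in eWAT. Of 10 genes of pericytes and smooth muscle 2 rose and 1 fell. Pdgfrb, the growth factor receptor of pericytes, stood at 169 and 103 CPM under the label Crtc1-/- against 28.3 and 25.6 CPM under Crtc1+/+, and Mcam, which endothelium shares, at 358 and 188 CPM against 56.1 and 50.7 CPM. Myh11, the myosin of contractile smooth muscle, fell, from 837 and 342 CPM to 101 and 59.6 CPM. Of 13 macrophage genes 3 rose (Csf1r, Cd163 and Adgre1), and C1qa did not pass, at 372 and 179 CPM against 80.0 and 39.3 CPM (adjusted p = 0.0655). Of 6 tested platelet genes 1 rose, Pf4, at 65.1 and 22.4 CPM against 6.55 and 4.36 CPM. Of 7 mesothelial genes none rose and Upk1b fell, from 37.2 and 54.0 CPM to 7.75 and 4.65 CPM. Called genes passed an adjusted p under 0.05 by edgeR, and their calls were not followed through the alternatives.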
